A study of Mus musculus with 8 samples.

Results

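The loci described here are those of 9 genes of the transforming growth factor beta (TGF-beta) pathway in mouse melanoma cells: the ligand genes Tgfb1, Tgfb2, Tgfb3 and Inhba, the receptor genes Tgfbr1 and Tgfbr2, the effector gene Smad3, and the inhibitor genes Smad7 and Skil. Their members are regions of the deposited ATAC-seq count table that lie inside one of these genes, or within 50 kb of it with that gene as the nearest protein-coding gene end. The rule found 132 of 148664 regions, 85 inside the genes and 47 outside. Smad3 held 31 of them, Tgfb2 27, Tgfbr2 22, Smad7 20, Tgfbr1 10, Skil 10, Inhba 6, Tgfb1 4 and Tgfb3 2. ATAC-seq reads open chromatin through the Tn5 transposase, which inserts sequencing adapters where DNA is accessible. The study profiled 4 lines in 2 libraries each, to ask how the transcription factor STAT3 acts on C/EBP factors and on the pigmentation genes under MITF. Lines 112 (p18 in the titles) and 113 (p44) were STAT3 knockout, given as Stat3∆ in the growth protocol, and lines 119 (p14) and 73 (p68) were wild type, given there as Stat3fl. The meaning of the p numbers is not stated, and neither the agent that made the deletion nor the deleted exons are given in the sources used here. All 4 lines were grown from lymph node cells of mice whose skin melanoma began at about 25 to 30 weeks. The labels call each line a clone, whereas the growth protocol calls them pools. Line and genotype cannot be told apart beyond these 2 lines of each kind, and whether the 2 libraries of each line are separate cultures is not stated, so a test between lines measures only the spread between such libraries.

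TGF-beta ligands are secreted in a latent form and, once released, bind a complex of type II and type I receptor kinases, encoded by Tgfbr2 and Tgfbr1. The activated type I receptor phosphorylates SMAD2 and SMAD3, which enter the nucleus with SMAD4 and regulate target genes. Among these targets are Smad7, whose product shuts the receptors down, and Skil, whose product SnoN is a corepressor of SMAD proteins. Inhba encodes the beta A subunit of activin, a related ligand that signals through its own receptors to the same SMADs. In melanoma the pathway is known for its links to growth arrest, invasion and loss of pigment cell identity.

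Levels are given as CPM, counts of a region per 1000000 counts of its library after TMM scaling, and a line's level is the mean of its 2 libraries. Library totals ran from 2697546 to 7464336 counts, with the shallowest library in line 112 and the deepest in line 119. Of the 132 regions, 127 passed the filter on low counts and were tested (3 regions of Tgfb2 and 2 of Skil did not pass). A region was called where the Benjamini-Hochberg adjusted p over all 140329 regions tested was under 0.05. It is described as separated by genotype where all 4 comparisons of a knockout with a wild-type line were called in the same direction.

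Features of the whole data set bear on these loci. The region at the end of Stat3 itself averaged 33.1 ± 6.95 CPM with knockout and 25.9 ± 10.8 CPM without (SD, n = 2 lines each, log2 fold change 0.36 ± 0.63, adjusted p 0.856), and it may lie outside the deleted part, so it checks nothing about the deletion. Regions within 1 kb of a transcription start took 24.2% to 24.5% of the counts in the line 119 libraries and 28.4% to 29.7% in line 112, against 34.05% to 34.26% in lines 113 and 73. Over all 15187 such regions the median log2 difference was −0.52 for line 112 against 73, 0.71 for 113 against 119, −0.70 for 119 against 73 and −0.48 for 112 against 113, but 0.07 for knockout against wild type. Marker genes of the melanocyte lineage had regions at the gene ends of all 8 genes, with sums of 158.1, 274.0, 85.9 and 129.7 CPM in lines 112, 113, 119 and 73. Of the sum in line 73, Pmel held 74.6 CPM and Mitf 39.1 CPM. The Sox10, Mlana, Dct and Kit ends were lower in line 73 than in line 119, and the Mitf, Pmel, Tyr and Tyrp1 ends higher. Of the 116 tested regions of these markers, 35 were higher in both knockout lines (30.2%, all regions 7.64%) and 2 lower, both at Mitf (1.72%, all regions 7.41%). The sums over 4 fibroblast markers were 28.3, 24.2, 15.6 and 60.3 CPM in the same order, all 4 with a gene-end region. Those over 5 lymphocyte and leukocyte markers were 4.29 to 11.3 CPM, over 3 endothelial markers 5.56 to 9.78 CPM and over 3 epithelial markers 3.29 to 5.10 CPM. Ptprc, Cd79a, Itgam, Pecam1, Cdh5, Krt8 and Cdh1 had no region at a gene end. The part of these differences in the results below was not tested.

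The 250 bases upstream of the annotated start (RefSeq, GRCm38.p6) are shown for 4 genes because their start regions differ most in how they vary between the lines. For Tgfb2 and Inhba the start used lies inside the gene as its annotated ends place it, and so do the bases shown. Tgfb2 was lower in both knockout lines, Inhba was high in line 73, Tgfbr2 was highest in line 73, and Tgfb1 varied least. Capitals mark the SMAD element CAGAC and the C/EBP motif TTGCNNAA, each searched on both strands.
Tgfb2 (chr1:186705990-186706239, minus strand): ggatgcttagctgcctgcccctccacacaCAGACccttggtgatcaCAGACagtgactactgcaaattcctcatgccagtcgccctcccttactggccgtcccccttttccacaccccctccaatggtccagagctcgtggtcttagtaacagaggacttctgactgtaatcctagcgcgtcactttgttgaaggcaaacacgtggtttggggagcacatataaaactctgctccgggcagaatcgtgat
Inhba (chr13:16011601-16011850, plus strand): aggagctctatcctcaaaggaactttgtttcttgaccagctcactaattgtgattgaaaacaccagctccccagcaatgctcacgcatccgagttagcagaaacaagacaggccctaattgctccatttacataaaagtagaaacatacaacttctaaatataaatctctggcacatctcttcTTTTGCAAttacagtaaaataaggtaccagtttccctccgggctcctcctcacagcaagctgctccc
Tgfbr2 (chr9:116175364-116175613, minus strand): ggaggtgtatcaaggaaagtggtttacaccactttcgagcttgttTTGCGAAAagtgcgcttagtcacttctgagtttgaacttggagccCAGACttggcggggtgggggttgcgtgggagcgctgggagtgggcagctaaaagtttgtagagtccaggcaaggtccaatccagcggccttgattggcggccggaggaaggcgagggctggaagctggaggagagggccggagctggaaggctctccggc
Tgfb1 (chr7:25686752-25687001, plus strand): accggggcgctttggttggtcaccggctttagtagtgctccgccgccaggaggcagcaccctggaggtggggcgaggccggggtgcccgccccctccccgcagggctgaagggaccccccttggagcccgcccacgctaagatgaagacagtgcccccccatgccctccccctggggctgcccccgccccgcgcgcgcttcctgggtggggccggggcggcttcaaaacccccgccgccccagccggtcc
The Tgfb2 sequence held 2 CAGAC elements, the first at base 30, and 8 CpG dinucleotides at 53.6% G+C. Inhba held a C/EBP match at base 184 and 3 CpGs at 43.2% G+C. Tgfbr2 held a C/EBP match at base 46, a CAGAC at base 91 and 12 CpGs at 58.4% G+C. Tgfb1 held neither motif and 21 CpGs at 75.2% G+C. Promoters of Smad3 (22 CpGs, 69.2% G+C) and Tgfbr1 (29 CpGs, 74.8% G+C at the start that overlaps a region) also lacked both motifs. The second annotated start of Tgfbr1 held 1 CAGAC, and no region of the table lay over it. CAGAC occurs in 42.2% and TTGCNNAA in 9.56% of 32851 promoters of this length. The SMAD palindrome GTCTAGAC (0.167% of promoters), the AP-1 motif TGANTCA (6.75%), the STAT motif TTCNNNGAA (7.02%) and the MITF type E-box TCACNTG (14.2%) were in none of these 7 sequences. Tgfb3, Smad7 and Skil were not matched in the promoter table. Their start region is taken as the strongest region within 1 kb of either gene end.

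No member region was called between the genotypes. The edgeR quasi-likelihood test on line sums called 0 of 127, as it called 0 of all regions tested (0%), with adjusted p no lower than 0.143. Unadjusted, p was under 0.05 at 20 member regions (15.7%, against 16.9% of all regions), 7 higher and 13 lower in the knockout. With DESeq2, 3 of 95 member regions given an adjusted p were called (3.16%, all regions 7.43%), all lower in the knockout (all regions 4.09%): a region in Tgfbr2 22314 bp from the start, a region just past its far end, and a region 118848 bp downstream of the Tgfb2 start. The median log2 fold change was −0.16 over the member regions and −0.09 over all. With each library taken as a replicate, which ignores that 2 libraries share a line, 29 were called (22.8%, all regions 22.7%).

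The lines themselves differed at many of these regions, about as often as elsewhere in the genome. Line 112 differed from line 119 at 50 member regions (39.4%, all regions 45.8%), 25 higher (all regions 22.2%) and 25 lower (all regions 23.5%). Against line 73 it differed at 69 (54.3%, all regions 49.9%), 24 higher (all regions 23.8%) and 45 lower (all regions 26.1%). Line 113 differed from line 119 at 67 (52.8%, all regions 58.9%), 37 higher (all regions 30.2%) and 30 lower (all regions 28.8%), and from line 73 at 76 (59.8%, all regions 52.2%), 29 higher (all regions 25.8%) and 47 lower (all regions 26.5%). The knockout lines differed from each other at 21 (16.5%, all regions 23.8%), of which 6 were higher in line 112 (all regions 8.24%) and 15 lower (all regions 15.6%). The wild-type lines differed at 68 (53.5%, all regions 56.9%). Of these, 49 were lower in line 119 than in line 73 (38.6%, all regions 29.4%) and 19 were higher (15%, all regions 27.5%). Line 73 was the highest of the 4 lines at 55 of the 132 regions, line 113 at 32, line 119 at 24 and line 112 at 21. The split of calls depends on the scaling. With total counts in place of TMM it was 25 higher and 40 lower for 119 against 73, 35 and 35 in place of 24 and 45 for 112 against 73, and 14 and 9 in place of 6 and 15 for 112 against 113, while the median of all regions for these 3 pairs moved from −0.10 to 0.10, from 0.08 to 0.40 and from 0.08 to 0.41. For 113 against 119 it was 29 higher and 32 lower in place of 37 and 30, with the median moving from 0.10 to −0.11. Without the first library of line 113, the knockout lines differed at 9 regions, and without the first library of line 119, line 112 differed from it at 33.

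**Figure D1:**
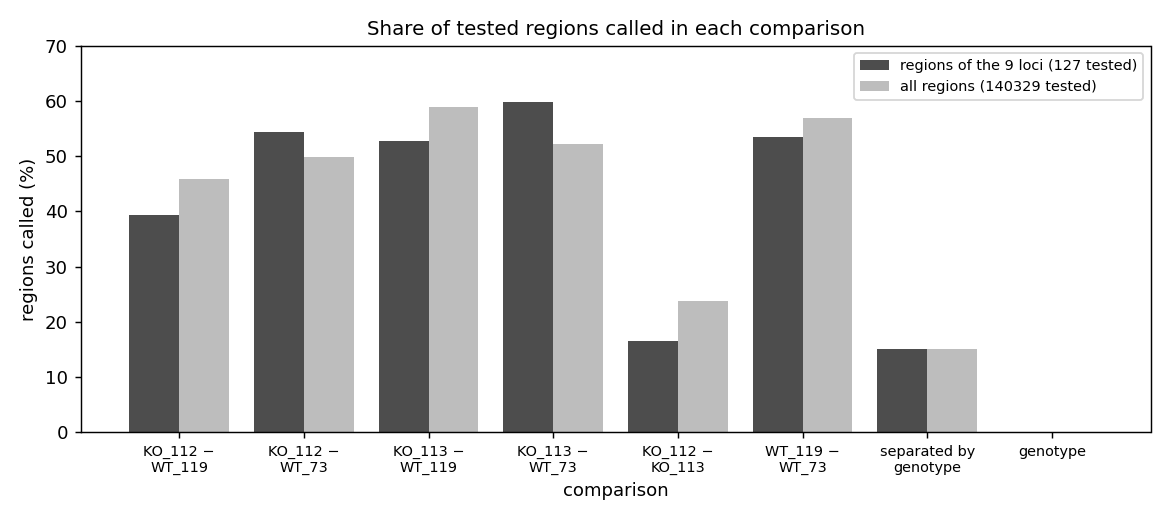
Share of tested regions called in each comparison, in percent, for the 127 regions of the 9 loci (dark bars) and for all 140329 regions (light bars). The shares are 15% and 15.1% for regions separated by genotype, and both are 0 for the genotype test.

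Of the 127 regions, 19 were separated by genotype (15%, all regions 15.1%), 8 higher in both knockout lines (6.30%, all regions 7.64%) and 11 lower (8.66%, all regions 7.41%). Tgfb2 held 3 higher and 4 lower, Tgfbr2 3 higher and 2 lower, Smad3 1 higher and 2 lower, Smad7 2 lower, Skil 1 lower and Tgfbr1 1 higher. Tgfb1, Tgfb3 and Inhba held none. The count was 9 with DESeq2 (7.09%, all regions 8.66%) and 12 without the second library of line 119 (9.45%, all regions 12.1%). When each library was left out in turn, 7 of the 19 kept the call in all 8 fits, and under every other alternative that tested them, namely the start region of Tgfb2 and the one at 118848 bp, the regions of Tgfbr2 at 22314, 67957 and 87929 bp, the region of Smad3 at 83193 bp and the region inside Skil. The other 12 lost it in at least 1 fit, with the largest adjusted p of the 4 pairs then between 0.0506 and 0.453. Both other ways of setting 2 lines against 2 gave 4 separated regions each (3.15%, all regions 4.97% for lines 112 and 119 against 113 and 73, and 3.04% for 112 and 73 against 113 and 119). The first 4 were all within 1 kb of a gene end and lower in lines 112 and 119 (3.15%, all regions 3.84%, against 0 and 1.12% higher): Smad3, Skil and 2 regions of Smad7. Start regions as a whole were lower in lines 112 and 119, which also have the lower p numbers (p18 and p14, against p44 and p68). Of the other 4, 2 were higher in lines 112 and 73 (1.57%, all regions 0.997%), both at Tgfb3, and 2 were lower (1.57%, all regions 2.04%), at Tgfbr2 and Skil. No line pair was called at 19 regions (15%, all regions 11.9%), and all 6 pairs at 2 (1.57%, all regions 1.40%). Without regard to calls, the libraries of the 2 genotypes did not overlap at 29 of the 127 regions (22.8%, all regions 26.7%).

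**Figure D2:**
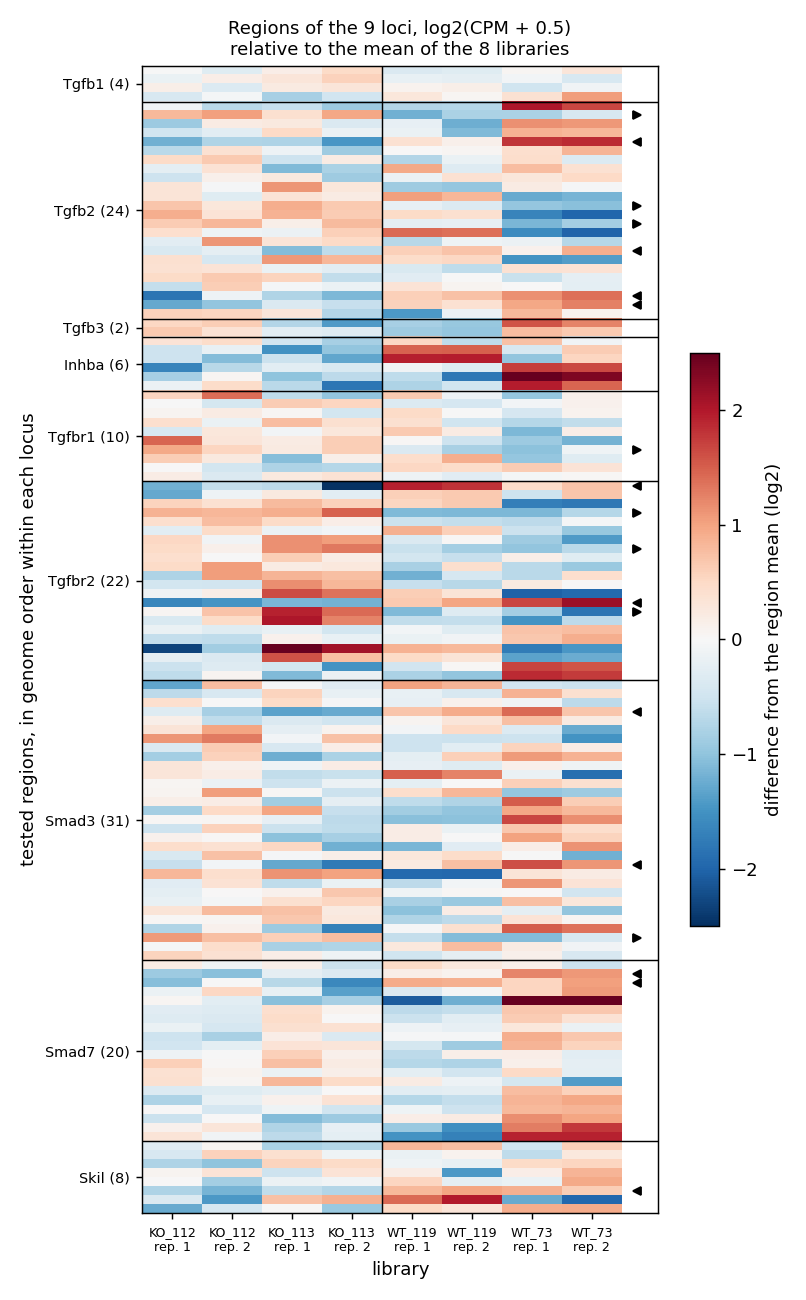
Each row is 1 of the 127 tested regions and each column 1 library; colour gives log2(CPM + 0.5) minus the region's mean over the 8 libraries. Triangles mark the 19 regions separated by genotype, pointing right where the knockout lines are higher and left where they are lower, and the columns of line 73 at Smad7 and Inhba include the darkest red.

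Summed over its regions, each locus had counts in all 8 libraries, and the order of the lines was not the same at every gene. A peak overlapped at least 1 region of every locus in each library, except Inhba in line 112, where none of the 6 regions had a peak in either library. Per kb of region, so that loci can be compared, the mean level was highest at Tgfb3 (24.7 CPM per kb), Tgfb1 (23.3) and Smad7 (20.8) and lowest at Tgfb2 (8.86) and Inhba (9.77). The spread between lines was widest at Inhba (highest line 5.27 times the lowest), Tgfb3 (3.51), Skil (2.499) and Smad7 (2.14), and narrowest at Tgfb2 (1.31) and Tgfb1 (1.33). Line 73 was the highest line at 6 loci and line 113 at Tgfb1, Tgfbr1 and Tgfbr2. Inhba was the single locus at which all 4 knockout libraries (13.5 to 20.6 CPM) lay below all 4 wild-type libraries (32.6 to 81.4 CPM). The share of all genes whose sums do not overlap was not counted, and among single regions it was 26.7%.

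**Figure D3:**
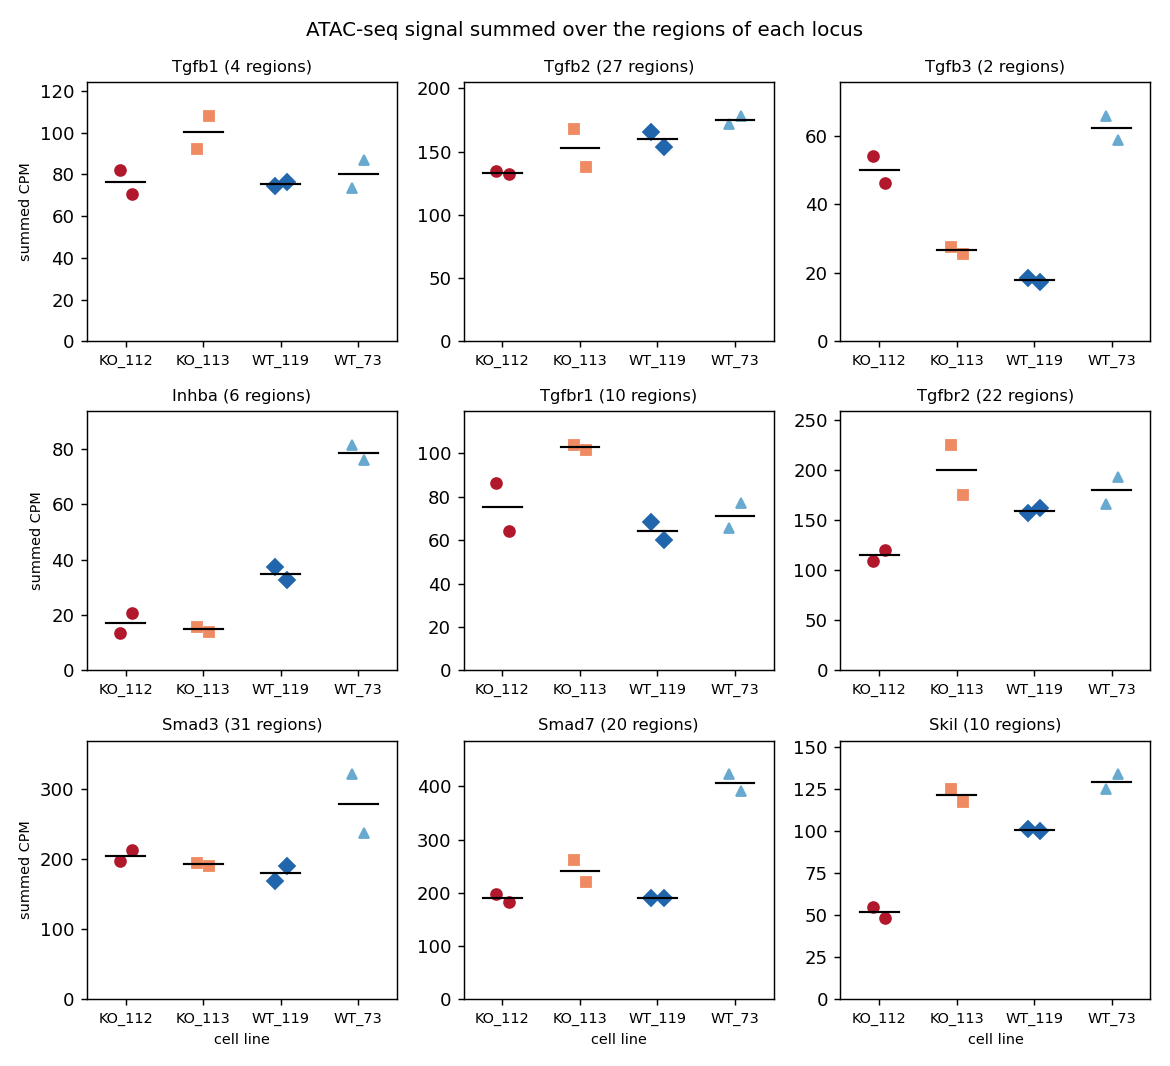
CPM summed over all regions of each locus, by line; each point is a library and the bar is the mean of the line's 2 libraries. Line 73 stands apart at Inhba and Smad7, line 112 is lowest at Skil and Tgfbr2, and lines 112, 119 and 73 overlap at Tgfb1.

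Among the ligands, Tgfb2 carried the clearest pattern. TGF-beta 2 is the isoform most tied to neural crest and eye development. Its start region (chromosome 1, 186705169 to 186706752) had 6.98 and 8.62 CPM in line 112. Line 113 had 13.6 and 11.6 CPM, line 119 had 26.5 and 23.1, and line 73 had 35.1 and 42.8. The genotypes did not overlap, as at 26.7% of all regions. The knockout lines averaged 10.2 ± 3.40 CPM against 31.9 ± 9.98 in the wild type (SD, n = 2 lines). The log2 fold change was −1.65 ± 0.69 (SE, adjusted p 0.244), and −1.72 relative to the median of all start regions. Line against line, the difference ran from −0.98 (113 against 119, adjusted p 0.00013) to −2.33 (112 against 73). Of the 11 tested regions in start windows of the 9 genes it was the 1 separated by genotype (6.78% of all start regions were).

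The neighbourhood of Tgfb2 moved in both directions. A region 1493 bp past the start had 2.04 and 1.75 CPM in lines 112 and 113 against 6.27 and 9.76 in lines 119 and 73. Its separation by genotype was lost without the first library of line 112. Beyond the far end of the gene, 118848 bp from the start, a region (chromosome 1, 186586805 to 186587477) had 3.94, 3.60, 9.84 and 30.2 CPM in lines 112, 113, 119 and 73. All 4 wild-type libraries there, 8.95 to 31.1 CPM, were above the knockout libraries, 2.66 to 4.62 CPM, and the log2 fold change was −2.41 ± 0.86 (adjusted p 0.189). In the opposite direction, a region at 127092 bp that overlapped no peak call had 2.82 and 2.36 CPM in the knockout lines against 0.38 and 0.67 in the wild type, which there rests on 2 or 3 counts per library. Inside the gene, at 67453 bp, the lines had 5.84, 7.23, 3.20 and 1.73 CPM in the same order, a difference of 1.38 ± 0.86 (adjusted p 0.432). Calls at both higher regions were lost in 3 of 8 fits that left out a library (largest adjusted p of 0.200 and 0.304). The strongest region apart from the start, 95870 bp away and with a peak in all 8 libraries, had 20.1, 30.4, 9.19 and 19.1 CPM and did not separate the genotypes. A region at 40325 bp, chosen after its values were seen, was open in line 119 (19.7 and 19.1 CPM), intermediate in the knockout lines (6.34 to 10.9 CPM) and low in line 73 (2.05 and 1.39 CPM). The sum over all regions of Tgfb2 differed little: 133.3, 153.1, 159.9 and 174.8 CPM in lines 112, 113, 119 and 73, where libraries of 113 and 119 overlapped.

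**Figure D4:**
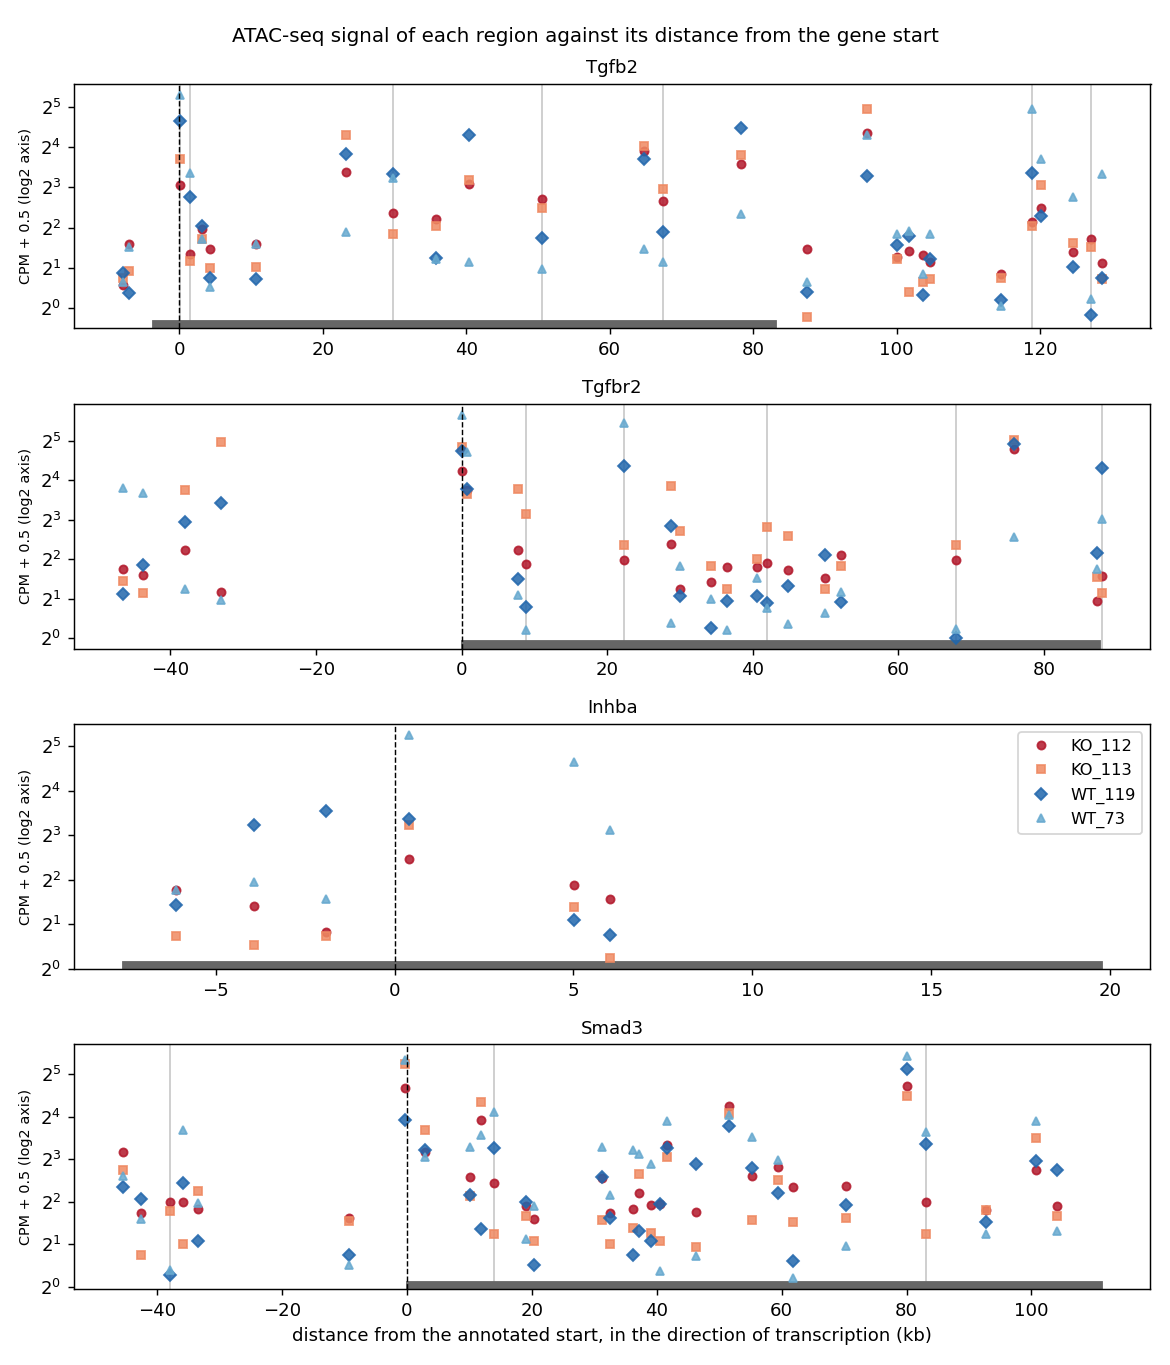
Line means of CPM (log2 axis, 0.5 added) for each region of Tgfb2, Tgfbr2, Inhba and Smad3 against its distance from the annotated start in kb; the grey bar along the base is the gene, the dashed line the start, and grey vertical lines mark regions separated by genotype. At the starts of Tgfb2 and Tgfbr2 the wild-type line 73 is the highest point, and within both genes some regions are highest in a knockout line.

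Inhba had its highest levels in the wild-type lines, at different regions in each. Its start region (chromosome 13, 16011849 to 16012687) had 3.26 and 6.77 CPM in line 112. In lines 113, 119 and 73 the pairs of libraries had 9.29 and 8.47, 10.6 and 8.95, and 38.7 and 36.1 CPM. Line 73 stood apart, and lines 113 and 119 overlapped. The log2 difference of line 119 from line 73 was −1.93 ± 0.23 (adjusted p 3.9e-10), or −1.22 relative to all start regions, and the genotype fold change was −1.78 ± 0.83 (adjusted p 0.288). A region 5007 bp past the start had 24.5 CPM in line 73 and 1.65 to 3.20 CPM in the other 3 lines. Conversely, a region at −1904 bp, before that start but inside the annotated gene, had 11.2 CPM in line 119. Lines 112, 113 and 73 had 1.28, 1.16 and 2.46 CPM there (119 against 73, 2.21 ± 0.37, adjusted p 1.1e-06). Of the 6 regions, 4 had an unadjusted genotype p under 0.05 (all regions 16.9%) and none was separated by genotype (all regions 15.1%). The median log2 fold change of the 6 was −1.91. The summed levels of lines 112, 113, 119 and 73 were 17.1, 14.9, 35.0 and 78.8 CPM, and the knockout lines overlapped. Weak regions of the surrounding 10 Mb, a proxy for copy number, stood at 0.30 and 0.17 in lines 119 and 73 and at −0.09 and −0.16 in lines 112 and 113, on the log2 scale relative to the library median.

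Tgfb3 varied between lines without following the genotype. The region at 1 gene end (chromosome 12, 86078736 to 86079826) had 48.2 and 39.7 CPM in line 112. The libraries of line 113 had 25.4 and 24.4 CPM, those of line 119 16.3 and 15.4 CPM and those of line 73 52.7 and 48.6 CPM. Line 112 was 0.83 ± 0.19 above line 113 (adjusted p 0.00073), and line 119 was 1.68 ± 0.19 below line 73 (log2 difference −1.68, adjusted p 3.3e-11), while the genotype fold change was 0.06 ± 0.67. The other region, 1379 bp inside the gene, had 6.26, 1.74, 1.96 and 11.7 CPM in lines 112, 113, 119 and 73. Lines 73 and 112 were the highest at both regions, while line 119 was lowest at the gene end and line 113 inside the gene, where the libraries of these lines overlapped. No libraries of neighbouring lines overlapped in the sum over this locus.

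Tgfb1, which encodes the most widely expressed isoform, had the start region with the narrowest spread between lines among those of the 9 genes (highest line 1.595 times the lowest). Its start region (chromosome 7, 25686554 to 25687569) had 30.7 and 24.9 CPM in line 112. Line 113 had 34.4 and 43.1 CPM, line 119 had 23.8 and 24.8, and line 73 had 31.8 and 38.1. Knockout and wild-type libraries overlapped (log2 fold change 0.18 ± 0.61, adjusted p 0.943). Line 113 was 0.67 ± 0.18 above line 119 (adjusted p 0.00153), close to the 0.71 of all start regions. The strongest other region, 2533 bp into the gene, had 29.4, 37.2, 33.5 and 25.5 CPM in lines 112, 113, 119 and 73. Beyond the gene, 19054 bp from the start, a weak region had 1.59 to 3.08 CPM in the knockout libraries and 3.38 to 7.22 CPM in the wild-type libraries, which did not overlap, at a fold change of −1.06 ± 0.85 (adjusted p 0.563). In the sum over the locus line 113 was highest (92.2 and 107.9 CPM) and the other 3 lines, 70.5 to 86.7 CPM, overlapped.

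Tgfbr2, the type II receptor gene, held the member region with the smallest genotype p. That region (chromosome 9, 116152732 to 116153365), 22314 bp from the start and inside the gene, had 3.26 and 3.69 CPM in line 112. In lines 113, 119 and 73 the pairs of libraries had 4.76 and 4.60, 17.7 and 22.5, and 36.4 and 50.6 CPM. Every wild-type library was above every knockout library, with means of 4.08 ± 0.85 and 31.8 ± 16.5 CPM in knockout and wild type (SD, n = 2 lines). The log2 fold change was −2.95 ± 0.78, with p 0.00143 and adjusted p 0.143, and line by line it ran from −2.09 to −3.64. At the far end of the gene, 87929 bp from the start and just past the annotated end, a region had 2.47 and 1.71 CPM in lines 112 and 113 against 19.4 and 7.62 in lines 119 and 73 (−2.74 ± 0.91, adjusted p 0.171).

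Other regions within Tgfbr2 were higher in the knockout lines, at low levels. At 67957 bp the lines 112, 113, 119 and 73 had 3.44, 4.59, 0.51 and 0.67 CPM (log2 fold change 2.75 ± 0.90, adjusted p 0.168). At 8800 bp they had 3.16, 8.37, 1.23 and 0.65 CPM (2.58 ± 0.93, adjusted p 0.192), with no peak call in any library and a call that was lost in 3 of 8 fits without a library (largest adjusted p 0.349). The start region (chromosome 9, 116174987 to 116175569) had 18.6 and 18.2 CPM in line 112. The libraries of line 113 had 30.8 and 25.2 CPM, those of line 119 25.5 and 26.9 CPM and those of line 73 45.6 and 53.9 CPM. Lines 113 and 119 overlapped there, and line 73 was highest. Relative to all start regions, the log2 differences of lines 112, 113 and 119 from line 73 were −0.91, −0.83 and −0.22. The genotype fold change was −0.70 ± 0.64 (adjusted p 0.627), and −0.77 relative to all start regions. Near the far end, the strongest other region, at 75892 bp, had 27.2, 32.0 and 30.0 CPM in lines 112, 113 and 119 and 5.46 in line 73, a difference of 2.45 ± 0.25 between the wild-type lines (adjusted p 2.5e-12). A region 32993 bp upstream of the start, chosen after its values were seen, had 36.3 and 24.9 CPM in line 113 against 0.70 and 2.77 in line 112, a difference of −4.23 ± 0.37 between the knockout lines (adjusted p 7.7e-13). Lines 113, 73, 119 and 112, in falling order, had sums of 200.3, 180.2, 159.6 and 115.0 CPM over the locus, and libraries of 113 and 73 overlapped.

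Tgfbr1, the type I receptor gene, varied less than Tgfbr2 in its sum (highest line 1.595 times the lowest, against 1.742). Its start region (chromosome 4, 47352865 to 47353455) had 45.4 and 33.6 CPM in line 112. Line 113 had 71.8 and 66.5 CPM, line 119 had 35.9 and 34.3, and line 73 had 43.8 and 49.7. Line 113 was above the other 3 lines, and the genotype fold change was 0.42 ± 0.58 (adjusted p 0.794). Relative to all start regions, line 113 exceeded line 119 by 0.27 and line 73 by 0.56. A region 21142 bp into the gene had 6.49 and 5.06 CPM in the knockout lines against 2.29 and 2.44 in lines 119 and 73. The call in all 4 pairs was lost in 4 of 8 fits without a library (largest adjusted p 0.363), and the fold change was 1.28 ± 0.84 (adjusted p 0.462). The smallest genotype p of the locus was at a region 16183 bp into the gene. Lines 112, 113, 119 and 73 had 4.26, 2.705, 1.56 and 0.66 CPM there, with 3 and 2 counts in the libraries of line 73. The genotypes did not overlap, as at 26.7% of all regions, and the fold change was 1.59 ± 0.88 (adjusted p 0.369). Lines 113 and 119 were not called apart. A region 51949 bp from the start and beyond the gene had 11.9, 15.6, 10.8 and 12.4 CPM and no pair of lines was called. The summed level was highest in line 113 (102.8 CPM), while libraries of lines 112, 73 and 119 (64.5 to 75.3 CPM as line means) overlapped.

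Smad3, which encodes the SMAD that carries the TGF-beta and activin signal to DNA, had regions across the whole gene and upstream of it. Its start region (chromosome 9, 63757867 to 63758586) had 24.0 and 26.2 CPM in line 112. In lines 113, 119 and 73 the pairs of libraries had 35.8 and 39.4, 15.3 and 14.01, and 46.3 and 33.3 CPM. Line 119 was the lowest, −1.44 ± 0.20 against line 73 (adjusted p 1.1e-08) and −0.74 relative to all start regions, while the genotypes overlapped (0.19 ± 0.66, adjusted p 0.940). At 83193 bp the knockout lines had 3.48 and 1.87 CPM against 9.78 and 12.0 in the wild type (−2.01 ± 0.87, adjusted p 0.257). At 13945 bp the level was 4.90 and 1.86 CPM in lines 112 and 113 against 9.09 and 16.9 CPM in lines 119 and 73, and all 6 pairs of lines were called. The genotype separation there was lost without the first library of line 112 or the second of line 119, with largest adjusted p of 0.212 and 0.179. In the other direction, a region 37959 bp before the start, with no peak call in any library, had 3.52 and 2.93 CPM in the knockout lines and 0.71 and 0.81 in the wild type. The strongest region apart from the start, at 80017 bp, had 26.2, 22.1, 34.3 and 43.0 CPM in lines 112, 113, 119 and 73, and the genotypes overlapped. A region at 11834 bp, chosen after its values were seen, was nearly closed in line 119 alone (2.07 and 2.03 CPM, against 10.8 to 20.8 CPM in the other 6 libraries). In the sum, line 73 was highest at 279.3 CPM, followed by lines 112, 113 and 119 at 205.1, 192.7 and 180.3 CPM, where libraries of 113 and 119 met at 191.1 CPM.

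The region of the inhibitor gene Smad7 with the highest mean CPM lay outside the gene. Per kb it had 46.9 CPM, less than the region at the end of the gene (54.3 CPM per kb), and in both knockout lines its CPM was below that of the gene-end region. It lay 24557 bp from the nearest gene end, had a peak in all 8 libraries and had 20.02 and 18.2 CPM in line 112. The libraries of line 113 had 32.6 and 29.5 CPM, those of line 119 42.8 and 40.7 CPM and those of line 73 89.9 and 81.4 CPM. All 6 pairs of lines were called and the genotypes did not overlap (log2 fold change −1.34 ± 0.61, adjusted p 0.276). The smallest step, between lines 113 and 119, was −0.43 ± 0.17 (adjusted p 0.028). It was lost when any library of line 113 or 119 was left out, with adjusted p of 0.0506 to 0.196. A weaker region 13657 bp outside had 1.70 and 0.92 CPM in the knockout lines against 5.12 and 4.70 in the wild type.

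The region at the end of Smad7 itself followed the general pattern of start regions: 26.6, 40.2, 25.7 and 48.2 CPM in lines 112, 113, 119 and 73. Relative to all start regions its pairwise log2 differences were between −0.34 and −0.06. A region 3972 bp outside the gene, chosen after its values were seen, was open in line 73 (24.8 and 30.0 CPM) and low in the other 6 libraries (0.52 to 3.96 CPM). It had the widest span of all member regions, with the highest line 29.4 times the lowest. Summed over 20 regions, line 73 had 406.4 CPM against 241.2, 190.3 and 189.8 CPM for lines 113, 119 and 112, of which the last 2 overlapped.

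At Skil a single region at a gene end (chromosome 3, 31094338 to 31096026) had the highest mean CPM of all 132 regions. It is 1689 bp wide, and per kb its 46.6 CPM were below the 80.6 of the Tgfbr1 start region. In line 112 its level was below that of the Tgfb3 gene-end region. This region had 42.6 and 36.3 CPM in line 112. Line 113 had 107.4 and 102.1 CPM, line 119 had 67.3 and 64.3, and line 73 had 102.4 and 106.9. Line 112 was −1.40 ± 0.16 below line 113 (adjusted p 1.2e-09), and −0.92 relative to all start regions. Weak regions of the surrounding 10 Mb were also lower in line 112, by −0.64 on the log2 scale, against 0.24, 0.42 and 0.10 in lines 113, 119 and 73. The genotype fold change was −0.24 ± 0.58 and became 0.12 once that regional level was taken out. A second region, 13656 bp inside the gene, had 2.203 and 2.80 CPM in the knockout lines and 9.31 and 8.36 in lines 119 and 73. It was lower in both knockout lines in every fit that left out a library, with a fold change of −1.81 ± 0.86 (adjusted p 0.296). A region 2122 bp outside the gene, chosen after its values were seen, was open in lines 113 and 119 (4.53 to 11.5 CPM) and low in lines 112 and 73 (0.28 to 1.86 CPM).

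**Figure D5:**
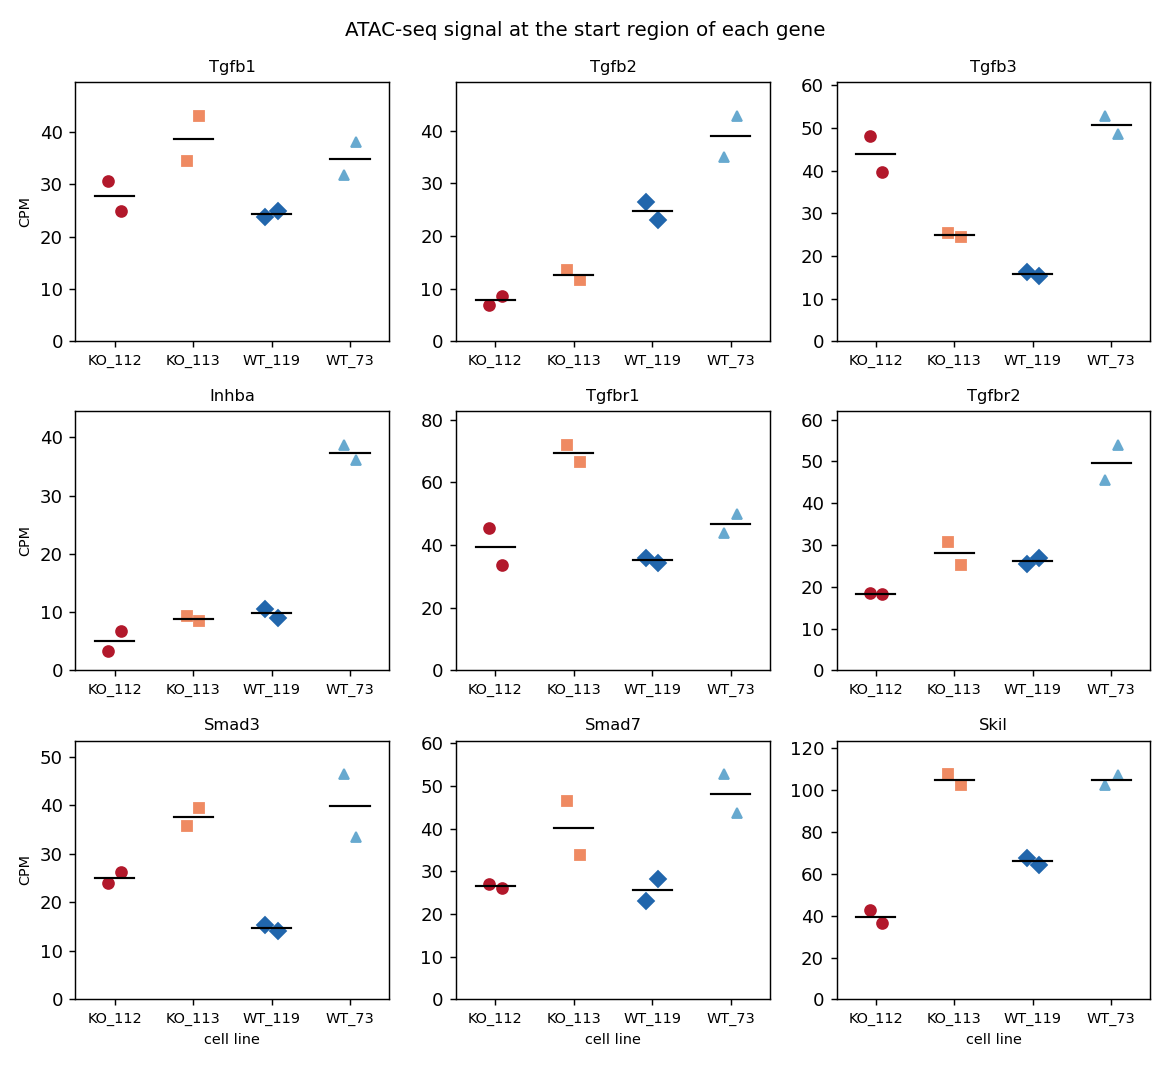
CPM of the start region of each of the 9 genes, by line; each point is a library and the bar is the mean of the line's 2 libraries. At Tgfb2 all knockout points lie below all wild-type points, at Inhba line 73 stands apart, and at Smad3, Smad7 and Skil lines 113 and 73 lie above lines 112 and 119.

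Regions in start windows and the other regions varied in different ways. A start window reaches 1 kb from an annotated start, or from either gene end at Tgfb3, Smad7 and Skil. All 11 tested regions in start windows were called in at least 1 pair of lines, with a median of 5 of 6 pairs called, and the highest line was a median of 2.65 times the lowest. The other 116 tested regions had a median of 3 pairs called and a median ratio of 3.55, and 19 of them were called in no pair. Over all regions, 6.61% of those at starts and 12.5% of the others were called in no pair. Counts at starts are larger, which makes a difference of a given size easier to call, and start regions also shifted as a class between lines. The part of either in these shares was not tested.

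The authors' peak calls, made per library, differed between the lines at the same loci. A peak was called in both libraries at 58 member regions of line 119 (43.9%, all regions 50.4%). The count was 46 for line 73 (34.9%, all regions 30.01%), 42 for line 113 (31.8%, all regions 27.9%) and 18 for line 112 (13.6%, all regions 12.0%), and the part of depth was not tested. Line 119 had the deepest libraries and line 112 the shallowest one. The totals were 4367914 and 3945177 counts in line 73 and 5029386 and 4450860 in line 113. In all 8 libraries a peak overlapped 15 member regions (11.4%, all regions 8.19%), 8 of them in start windows. No peak overlapped 24 (18.2%, all regions 12.2%). Inhba had no region with a peak in both libraries of line 112, 1 such region for line 113, 3 for line 119 and 2 for line 73.

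Other genes of the pathway, 38 in all with 523 tested regions, gave a similar picture. No region was called between the genotypes, 42 were higher in both knockout lines (8.03%, all regions 7.64%) and 51 lower (9.75%, all regions 7.41%). Counts of single genes and lists below stand against the same shares of all regions. In each list the gene with most regions separated by genotype is named. Its own count is high by that choice, and other genes of a list can go the other way. Among genes of latency and activation, 13 regions were higher and 17 lower of 153, and Ltbp1, which encodes a protein that tethers latent TGF-beta to the matrix, held 3 and 12 of its 49. Of 107 regions of other receptors 9 were higher and 11 lower, with 2 and 6 in Tgfbr3, the gene of the coreceptor betaglycan. Other Smads had 9 higher and 2 lower of 67, and 6 of the higher ones lay at Smad5, a SMAD of the BMP branch, out of 10 tested. Other inhibitors had 4 higher and 9 lower of 109, with 2 and 3 at Tgif1. The target genes had 7 higher and 12 lower of 87. Of these, Tgfbi, whose product is a matrix protein induced by TGF-beta, held 8 lower and none higher of 17. Summed over its regions, Tgfbi had 117.6, 101.2, 264.0 and 321.1 CPM in lines 112, 113, 119 and 73.

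Across the 8 libraries, which are pairs from 4 lines and so share lines and depth, the summed log2 CPM of some members ran in parallel. Pearson's r was 0.912 for Tgfbr2 and Skil, 0.882 for Tgfb1 and Tgfbr1 and 0.824 for Smad3 and Smad7, and −0.590 for Inhba and Tgfbr1. Of 12323 protein-coding genes with at least 3 regions, the most alike was Eps15l1 for Tgfb1 (r 0.960), Pphln1 for Tgfb2 (0.978), Srrm4 for Tgfb3 (0.989) and Myom1 for Inhba (0.998). For the receptors it was Kdm4c for Tgfbr1 (0.987), on the same chromosome 4, and Cox7a2l for Tgfbr2 (0.978). For the others it was Utp6 for Smad3 (0.987), Myo5c for Smad7 (0.999) and Jade1 for Skil (0.993), the last also on chromosome 3. With 4 lines and this many genes, high values of r are easily found.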

How the data were processed

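The authors deposited whole-number counts per region for all 8 libraries in 1 table, and a peak list per library with a fold over background (a ratio) and −log10 q values from the authors' peak caller. Per the submitters' processing notes, the tools were Bowtie2 2.2.4, Picard 1.118 and MACS2 2.1.1.20160309 and the builds mm10 and GRCm38. Their settings, and how reads were counted, deduplicated or shifted for the transposase, are not given in the sources used here. PCR copies, if counted, would make counting error larger than it appears. Each transposase reaction held 50000 cells, and fragments over 1200 bp were removed, per the labels' protocols.

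Gene ends came from RefSeq (GRCm38.p6). Counts were filtered with filterByExpr (minimum count 10, total 15) on line sums and scaled by TMM. Genotypes were compared, 2 lines against 2 with each line's libraries added up, by the two-sided glmQLFTest of edgeR 4.0.16 after robust glmQLFit in R 4.3.3. Pairs of lines came from 1 fit of the 8 libraries. A standard error is the fold change divided by the root of the F statistic. Adjusted p-values (Benjamini-Hochberg) run over all regions tested. Peaks overlapped by at least 1 bp (bedtools 2.31.1). Alternatives were DESeq2 1.42.0 size factors and Wald test, total counts, other filters, a regional offset over 10 Mb windows, limma 3.58.1 voom, other units, and leaving out each library.

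Every member was named with these regions: its start region (most CPM within 1 kb of the start), its strongest other region, that with the smallest genotype p, and up to 2 separated regions per direction. The members, lists and rules were chosen with earlier results of these data known. The sum of a locus adds regions of unequal width, so levels between loci are given per kb.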

Additional observations from a re-analysis of the deposited data

Results flagged for a closer look

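Among the 4 libraries of each genotype, the 34 named regions and the 9 locus sums gave 86 sets, of which 3 held a library set apart from the rest. About 1 in 20 would by chance if the 4 libraries were independent. They are pairs from 2 lines, so that rate is no measure for these sets. At the region of Tgfbr2 67957 bp from the start, the second library of line 113 had 5.56 CPM and the remaining knockout libraries 3.39 to 3.63 CPM. At the same region, the second library of line 73 had 0.83 CPM and the remaining wild-type ones 0.51 to 0.52 CPM, a level of 2 to 4 counts. The sum over Tgfb2 was 168.1 CPM for the first library of line 113, while the 3 remaining knockout libraries had 132.0 to 138.1 CPM.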

How the results depend on the processing

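The genotype count over member regions was 0 under other scalings and filters, the regional offset, limma-voom (line as random block), regions inside the genes alone and every fit without a library (range 0 to 0). It was 29 with the library as the unit and 3 with the DESeq2 Wald test. Counts are given below in the order 112 against 119, 112 against 73, 113 against 119, 113 against 73, 112 against 113, and 119 against 73. A minimum of 50 counts on average left 30 member regions tested, with 16, 23, 20, 22, 7 and 19 called and 8 separated by genotype. Inside the genes alone (85 regions) the counts were 32, 48, 43, 49, 12 and 44, with 13 separated. DESeq2 called 29, 49, 42, 56, 11 and 48, with 9 separated. Without each library in turn the ranges were 33 to 50, 56 to 70, 47 to 73, 62 to 80, 9 to 26 and 50 to 72, and 12 to 19 were separated. The replicate numbers did not pair the libraries: deviations of same-numbered libraries correlated between −0.0367 and 0.00386 over regions. With the replicate block the counts were 50, 69, 65, 76, 22 and 68, with 18 separated. RLE size factors, total counts, no filter, regions overlapping a peak and the regional offset kept each count within 1.5 times.

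Of the 34 named regions, 30 kept the sign of the genotype fold change in every alternative examined for them. Those alternatives were RLE size factors, total counts, the regional offset, the library as unit, the DESeq2 Wald test and each fit without a library. Start regions were also set relative to all start regions. The sign was not examined under the other filters or limma-voom. The 2 regions of Tgfb1 became −0.18 (start) and −0.23 (2533 bp) with the regional offset. The Tgfb3 start region became −0.048 with that offset, −0.0066 relative to all start regions, and −0.075 to 0.14 over the fits without a library of line 112. The Skil start region became 0.12 with the offset. These 4 had folds well within their standard errors. The comparison with all start regions, the locus sums under total counts and the line pairs of named regions were added after seeing the data. Of 135 calls between lines at named regions, 105 (DESeq2) to 135 kept call and direction over alternatives that tested all of them. Depth limits what a weak region can show: at 2 of the regions described, in Tgfbr2 (8800 bp) and outside Skil (2122 bp), a library of line 73 held 1 count.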
